A study of Mus musculus with 36 samples.

Results

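The 77 mitochondrial ribosomal protein genes described here are the entries of the deposited table whose symbols begin with Mrpl or Mrps followed by a number, 77 of 36856 symbols. The rule also asked for a mean of at least 10 counts over the 36 libraries and for no pseudogene suffix, and neither condition removed a name. Of the 77, 48 carry a large subunit symbol and 29 a small subunit symbol. All 77 passed the filter on low counts that left 16065 tested genes.

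Mitochondria hold their own ribosome, which translates the few proteins that mitochondrial DNA encodes, all of them parts of the respiratory chain and the ATP synthase. Its ribosomal RNA comes from mitochondrial DNA, whereas its proteins are made from nuclear genes, translated in the cytosol and imported. Proteins with bacterial counterparts sit in it beside proteins particular to mitochondria, and loss of single proteins can lower respiration.

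The libraries came from mouse embryonic fibroblasts (MEF) that were WT or PERK -/- (Perk-null below), 18 libraries each. PERK is the kinase that phosphorylates the translation factor eIF2 alpha under stress of the endoplasmic reticulum and thereby turns on the integrated stress response. Each genotype received the vehicle DMSO, thapsigargin (Tg), BtdCPU, halofuginone (HF), BtdCPU with Tg, or HF with Tg, in 3 replicates a group. Tg stresses the endoplasmic reticulum by inhibiting its calcium pump, BtdCPU is an activator of the eIF2 alpha kinase HRI, and HF inhibits prolyl-tRNA synthetase and so activates the kinase GCN2. According to the title, the series asks whether switching on another kinase of this response remodels mitochondria in cells without PERK. Doses, treatment times, passage and the number of independent lines per genotype are not in the labels, so a difference between genotypes cannot be told apart from a difference between cell lines. In bulk RNA, fewer cells of a kind and less RNA per cell cannot be told apart.

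Libraries held 32454257 to 37178107 counts, and the lowest count of any member in any library was 15. Eif2ak3, the gene of PERK, lay between 7.66 and 35.4 CPM in Perk-null libraries and between 16.4 and 110.0 CPM in WT libraries, without overlap in 6 of 6 treatments. CPM values are counts brought to a common library size with edgeR's TMM factors. The marker CPM that follow were instead scaled by library totals alone. Summed CPM of 10 fibroblast markers ran from 14544 to 34729, while 5 epithelial markers summed to at most 1.88 CPM and 4 endothelial markers to at most 4.47 CPM. Blood markers summed to at most 5.46 CPM in WT and at most 23.1 CPM in Perk-null libraries, and neural markers, nearly all Tubb3, to at most 232 CPM. The part of these markers in the results was not tested. Replicate 3 had the lowest share of counts in members in 12 of 12 groups, and replicate 2 of WT BtdCPU stood apart for several members, as given below.

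Promoter windows were taken from RefSeq on GRCm38.p6 for 68 of the 77 members, each covering 250 bases before and 50 after the annotated start. The first transcribed bases matched a GENCODE M21 transcript for 60 of the 68, among them Mrpl9 and Mrpl18 but not Mrps18b and Mrpl34. They were searched on both strands for 4 short motifs: GCATGCG (the core of the site of NRF1, a regulator of nuclear genes for mitochondria), CCGGAAG (ETS factors such as GABPA), GATGGCG (YY1) and TGATGNAA (the composite element bound by ATF4 with C/EBP partners). Shares are of genes with a match in at least 1 window. The ETS letters occurred for 36.8% of the 68 members, against 18.2% of 11158 tested genes and 9.9% of all 27025 genes in the table. The NRF1 letters occurred for 11.8% of the 68 members (6.7% of tested genes, 4.0% of all) and the YY1 letters likewise for 11.8% (6.9% and 4.0%). No member window held the ATF4 letters, which were in 3.1% of tested genes and 4.5% of all. Of the cytosolic ribosomal protein genes with a window, 40.4%, or 23 of 57, had the ETS letters. The 250 bases before the start are printed for 4 members that lead the comparisons below, 5′ to 3′ on the strand of the gene, with motif matches on either strand in capitals. Mrps18b (chr17:35916441-35916690, minus strand) and Mrpl9 (chr3:94443086-94443335, plus strand) each held the NRF1 letters on both strands at 1 overlapping place. The whole window of Mrps18b also held the ETS letters, but no full match lies within its printed bases. Mrpl18 (chr17:12916092-12916341, minus strand) and Mrpl34 (chr8:71464676-71464925, plus strand) each held 1 ETS match.
Mrps18b: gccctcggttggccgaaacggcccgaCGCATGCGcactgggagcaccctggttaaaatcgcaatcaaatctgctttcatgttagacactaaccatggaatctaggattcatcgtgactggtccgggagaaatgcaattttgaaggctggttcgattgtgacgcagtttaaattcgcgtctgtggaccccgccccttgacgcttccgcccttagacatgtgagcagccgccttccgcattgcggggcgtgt
Mrpl9: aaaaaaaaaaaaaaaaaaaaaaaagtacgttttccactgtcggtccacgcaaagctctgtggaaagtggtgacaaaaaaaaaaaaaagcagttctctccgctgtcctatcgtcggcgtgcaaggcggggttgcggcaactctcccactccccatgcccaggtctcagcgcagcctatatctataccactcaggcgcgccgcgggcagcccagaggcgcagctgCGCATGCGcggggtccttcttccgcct
Mrpl18: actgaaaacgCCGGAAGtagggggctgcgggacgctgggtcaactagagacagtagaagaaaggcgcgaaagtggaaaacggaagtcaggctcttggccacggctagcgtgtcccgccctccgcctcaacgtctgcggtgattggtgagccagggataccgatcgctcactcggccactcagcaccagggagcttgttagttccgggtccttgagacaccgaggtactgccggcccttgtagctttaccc
Mrpl34: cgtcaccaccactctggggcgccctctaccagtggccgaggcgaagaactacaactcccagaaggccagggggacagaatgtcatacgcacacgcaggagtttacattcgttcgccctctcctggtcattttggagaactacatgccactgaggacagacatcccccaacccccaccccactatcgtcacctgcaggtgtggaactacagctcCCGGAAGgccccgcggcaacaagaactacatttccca

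As a share of all counts, the members were most abundant in Perk-null cells under DMSO and least abundant in WT cells under HF. In WT libraries the 77 genes together took 0.429%, 0.441% and 0.371% of counts under DMSO, and 0.318%, 0.332% and 0.258% under HF. In Perk-null libraries they took 0.523%, 0.577% and 0.504% under DMSO and 0.509%, 0.539% and 0.489% under HF. The HF libraries thus lay under the DMSO libraries in WT cells, overlapped them in Perk-null cells, and every Perk-null DMSO library lay above every WT DMSO library. Group means ranged from 0.303% to 0.414% in WT cells and from 0.457% (Tg) to 0.535% in Perk-null cells. These shares are descriptions and carry no test.

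**Figure D1:**
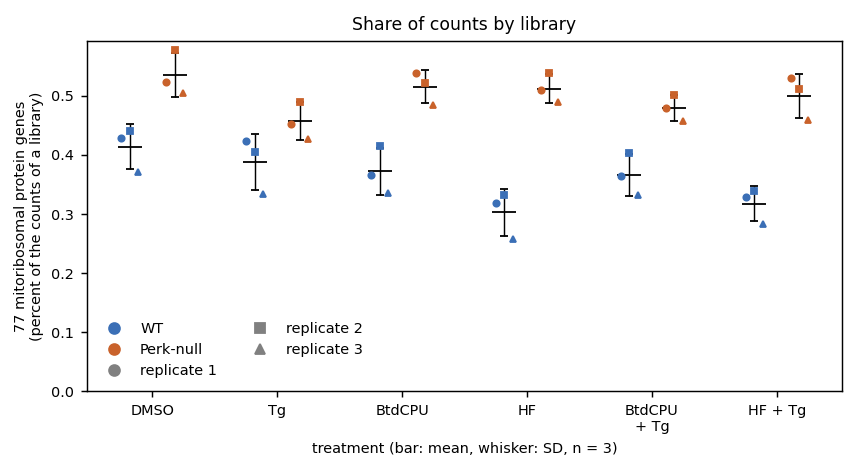
Percent of each library's counts that fell on the 77 genes (vertical axis) by treatment, with WT in blue, Perk-null in orange, a symbol per replicate, and the mean with SD (n = 3). WT group means run from 0.303% to 0.414% and Perk-null group means from 0.457% to 0.535%, and replicate 3 is lowest in each group.

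Per kilobase of transcript, WT DMSO levels had a median of 35.7 CPM per kb and ran from 1.99 (Mrpl23) to 244 (Mrps6, which shares exon sequence with Slc5a3 on the same strand). The ratio of a member's highest to its lowest group mean had a median of 2.15 and went from 1.27 to 9.59. Mrpl34 was the member with the 9.59-fold range, from 4.30 CPM in WT HF to 41.3 CPM in Perk-null Tg. The highest group mean lay in a Perk-null group for 58 of 77 members, and the lowest in WT HF or WT HF + Tg for 46.

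**Figure D2:**
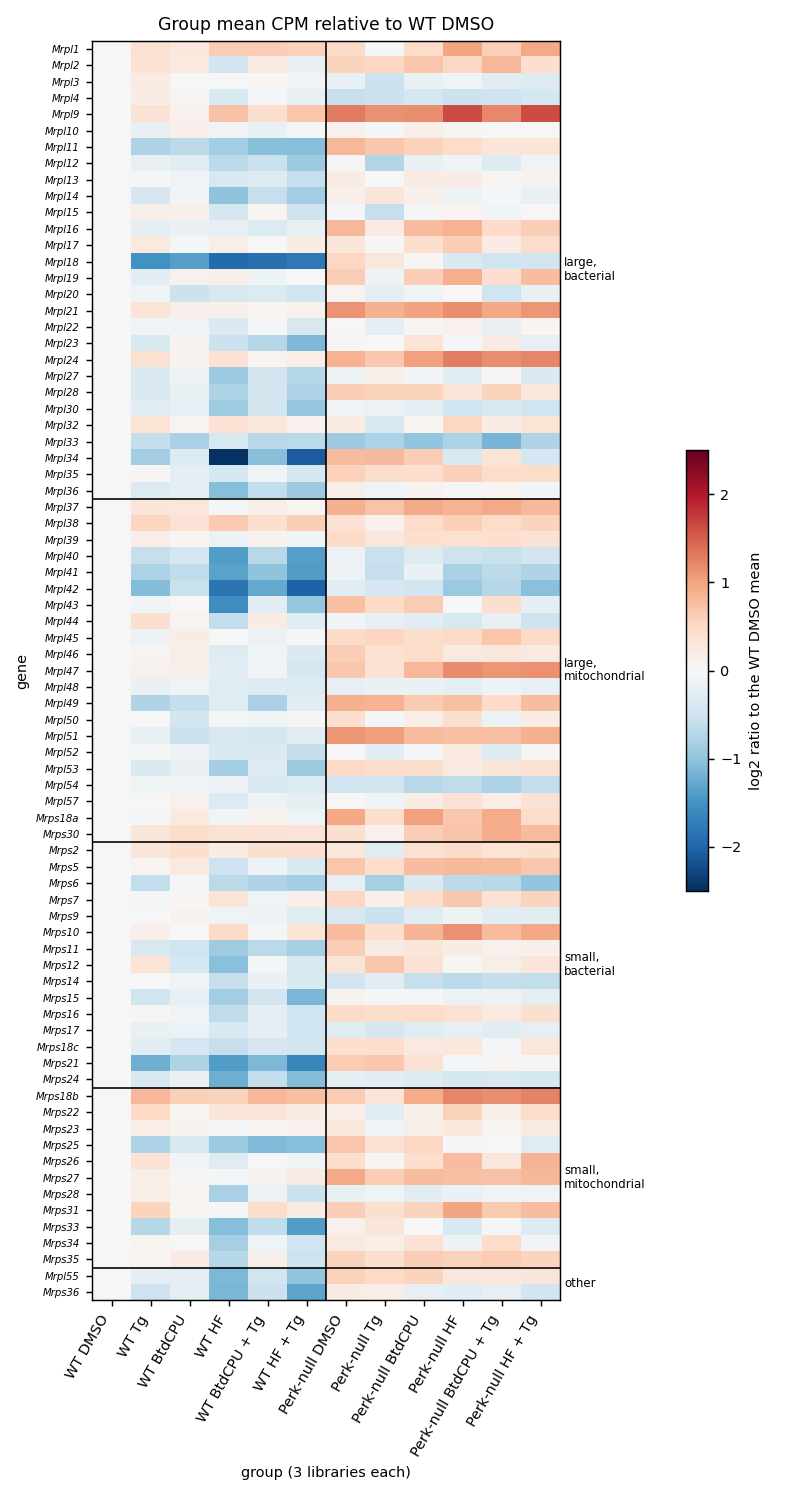
Group mean CPM of the 77 genes (rows, by subunit and class) in the 12 groups (columns) as log2 ratio to the WT DMSO mean, red higher and blue lower, each mean over 3 libraries. The deepest blue columns are WT HF and WT HF + Tg, which hold the lowest mean of 46 genes, and 58 genes have their highest mean in a Perk-null column.

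The untreated genotypes were compared first. Perk-null cells under DMSO had more of most members than WT cells: 40 of 77 were higher and 6 lower, with a median log2 difference of 0.36. Across all tested genes 49.5% were called in either direction by the same rule (edgeR adjusted p below 0.05), 24.6% higher and 24.9% lower, with a median of 0.02. The members called made up 59.7%, so the split between higher and lower differed more from the background than the share called. Among large subunit proteins with a bacterial counterpart 12 of 28 were higher and 2 lower, and among those particular to mitochondria 12 of 21 were higher and 1 lower. Among small subunit proteins these counts were 8 of 15 and 3, and 7 of 11 and 0. Mrpl47 and Mrps28 were counted as particular to mitochondria, although current nomenclature relates both to bacterial proteins, and Mrpl55 and Mrps36 were left without a class.

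Mrpl9, the relative of a bacterial large subunit protein of the same number, differed most. It stood at 84.1, 78.8 and 67.7 CPM in WT DMSO and at 182, 210.1 and 175 CPM in Perk-null DMSO libraries. Every Perk-null value was above every WT value, a log2 difference of 1.30 (SE 0.113, edgeR adjusted p 2.74e-11). Mrpl21, also of the bacterial core, was higher by 1.13 (SE 0.0937), and Mrpl51, particular to mitochondria, by 1.10 (SE 0.105). Mrpl51 went from 22.5, 20.2 and 22.3 CPM to 44.7, 51.6 and 43.2 CPM, again without overlap. Mrps18a and Mrps18b, paralogues of the bacterial S18 family of which the first sits in the large subunit, were higher by 0.96 (SE 0.0986) and 0.64 (SE 0.121).

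Mrpl33 went the other way. Its WT DMSO values were 68.1, 71.0 and 48.2 CPM and its Perk-null DMSO values 33.7, 39.5 and 26.9 CPM, which do not overlap. The log2 difference was -0.91 (SE 0.202, edgeR adjusted p 0.000387). Mrpl4, a protein that lines the peptide exit tunnel, differed by -0.58 (SE 0.0914) and Mrpl54 by -0.50 (SE 0.141). Of the stalk proteins, which recruit translation factors, Mrpl11 was higher by 0.83 (SE 0.140), while Mrpl10 (0.10, edgeR adjusted p 0.39) and Mrpl12 (-0.05, edgeR adjusted p 0.856) did not pass the threshold.

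**Figure D3:**
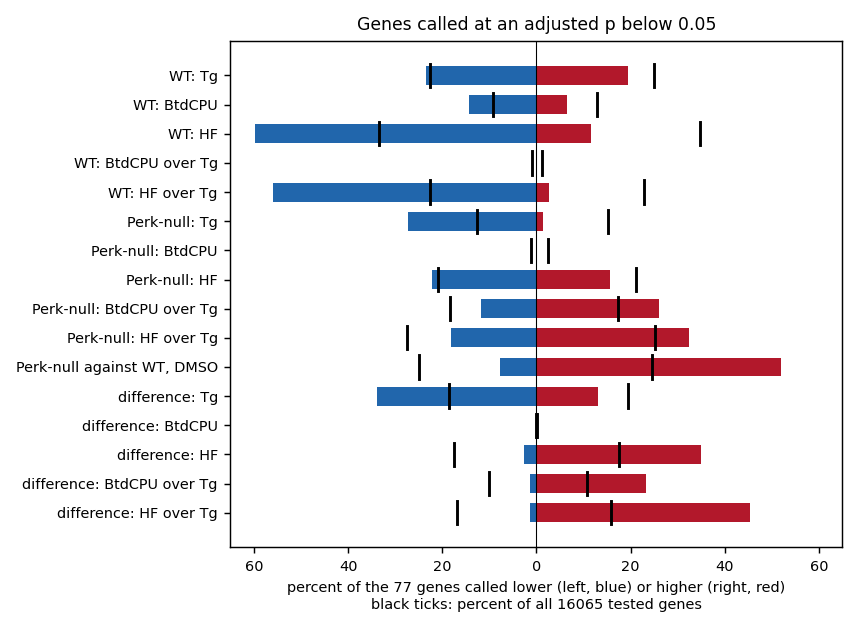
Percent of the 77 genes called higher (red, right) or lower (blue, left) at an edgeR adjusted p below 0.05 in 16 comparisons, with black ticks for the same percentages over all 16065 tested genes; "difference" is the Perk-null response minus the WT response. Lower calls extend past the ticks in WT cells for HF (46 of 77) and for HF added to Tg (43 of 77), and higher calls do so for the untreated genotypes (40 of 77). Other bars do so too, among them lower calls for Tg in Perk-null cells (21) and for the difference in Tg (26). Higher calls do so for the differences in HF (27), BtdCPU added to Tg (18) and HF added to Tg (35).

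Tg alone changed single members strongly in WT cells, in both directions. There 15 members rose and 18 fell, and 47.6% of all tested genes were called, so the members' 42.9% was near the background. The median log2 change was -0.05. In Perk-null cells 1 member rose and 21 fell, where 27.9% of tested genes were called and 12.7% fell. The median there was -0.18, against 0.05 for all tested genes.

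Mrps18b rose most in WT cells under Tg. It went from 43.3, 36.4 and 41.7 CPM to 76.7, 64.6 and 73.0 CPM, a log2 change of 0.82 (SE 0.121, edgeR adjusted p 1.4e-06). Among Perk-null libraries it went from 64.6, 62.7 and 62.1 CPM to 53.1, 49.7 and 47.9 CPM, a change of -0.33 (SE 0.120, edgeR adjusted p 0.0382). The groups did not overlap in either genotype, and the directions were opposite. The difference between the responses was -1.15 (SE 0.170, edgeR adjusted p 2.4e-06). The fall in Perk-null cells lost its call without replicate 1 (-0.31) or replicate 2 (-0.34) of Perk-null DMSO, or replicate 3 of Perk-null Tg (-0.34).

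Mrpl38, a protein of the central protuberance particular to mitochondria, rose by 0.54 (SE 0.0846) and Mrps31 by 0.56 (SE 0.136) in WT cells. Mrps30, a large subunit protein despite its symbol, went from 94.1, 101 and 87.8 CPM to 131, 115 and 102 CPM in WT cells, a change of 0.30 (edgeR adjusted p 0.0123). Among Perk-null libraries it went from 122, 135 and 119 CPM to 104, 110.3 and 92.1 CPM, a change of -0.29 (edgeR adjusted p 0.0237). The responses of Mrps30 differed by -0.60 (SE 0.140, edgeR adjusted p 0.000943). Without replicate 3 of WT DMSO (0.25) or replicate 1 (0.21) or 2 (0.26) of WT Tg the WT rise was not called, nor without the filter on low counts (0.27). The Perk-null fall was not called without replicate 2 of Perk-null DMSO (-0.24) or replicate 3 of Perk-null Tg (-0.27).

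Mrpl18 fell most under Tg in WT cells. Its WT values went from 139, 133 and 125 CPM to 55.0, 48.0 and 36.7 CPM, a log2 change of -1.51 (SE 0.227, edgeR adjusted p 1.98e-06). Perk-null values were 185, 206 and 173 CPM under DMSO and 162, 170.3 and 152 CPM under Tg. The Tg libraries lay far under the DMSO libraries in WT cells and just under them in Perk-null cells, and the responses differed by 1.28 (SE 0.314, edgeR adjusted p 0.00148). Mrps21, of the bacterial core of the small subunit, went from 35.5, 35.2 and 33.3 CPM to 16.6, 15.0 and 13.1 CPM in WT cells, a change of -1.22 (SE 0.164, edgeR adjusted p 2.8e-07). Its Perk-null values overlapped, with 58.4, 54.6 and 48.2 CPM under DMSO and 54.7, 56.5 and 54.3 CPM under Tg. The responses of Mrps21 differed by 1.26 (SE 0.226, edgeR adjusted p 4.39e-05).

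**Figure D4:**
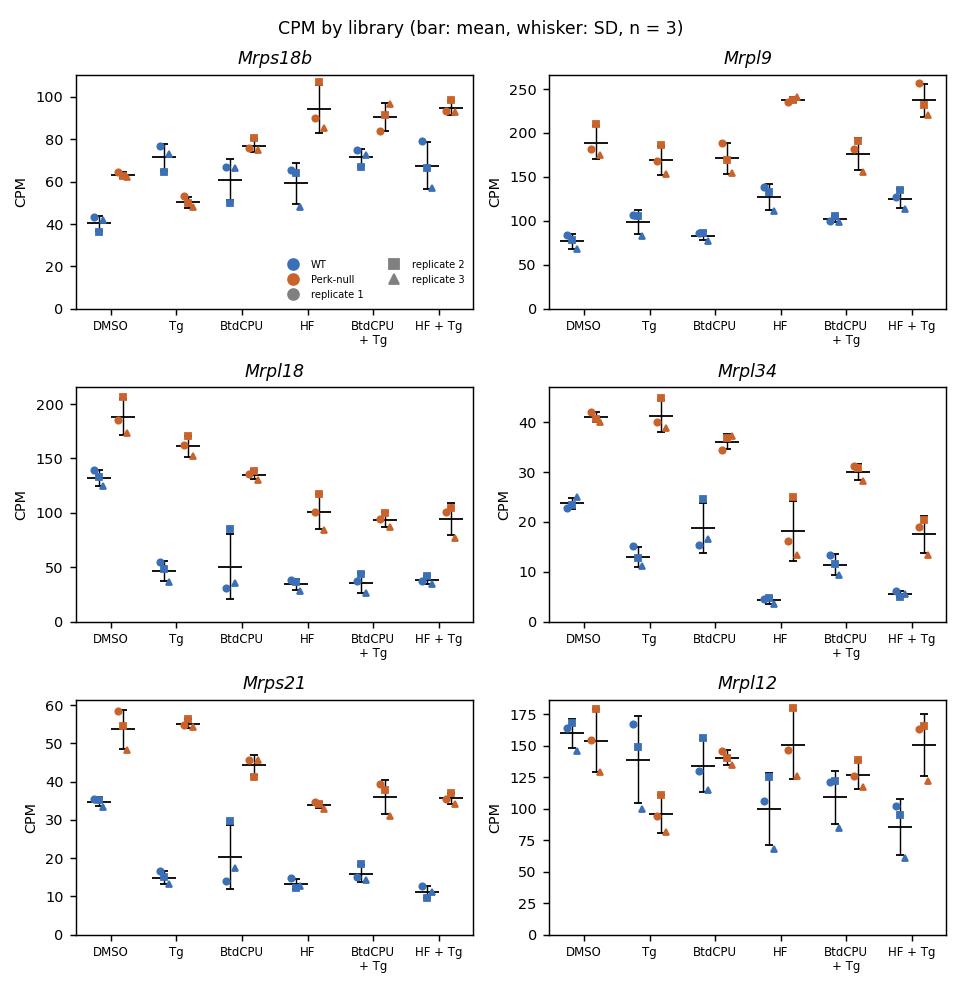
CPM of 6 genes in each library (vertical axis, from 0) by treatment, WT in blue and Perk-null in orange, a symbol per replicate, bars and whiskers for mean and SD (n = 3). Mrps18b rises with Tg in WT and falls in Perk-null libraries, Mrpl34 reaches 4.30 CPM in WT HF, and replicate 2 of WT BtdCPU lies above the other two for Mrpl18, Mrpl34 and Mrps21.

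The response to Tg differed between genotypes for 36 members, the Perk-null value being higher for 10 and lower for 26, beside 38.1% of all tested genes (19.5% higher, 18.6% lower). Mrps22 differed by -0.95 (SE 0.264) and Mrpl32, which is cleaved by a protease of the inner membrane before it is assembled, by -0.91 (SE 0.220). Mrpl32 stood at 52.8, 50.5 and 41.6 CPM under DMSO and 69.2, 63.5 and 51.7 CPM under Tg in WT cells, which overlap. In Perk-null cells it stood at 53.0, 64.8 and 46.1 CPM under DMSO and at 36.4, 42.6 and 32.0 CPM under Tg, where every Tg value lay under every DMSO value. The largest falls in Perk-null cells were those of Mrpl19, -0.74 (SE 0.110), of the stalk protein Mrpl12, -0.69 (SE 0.203), and of Mrps6, -0.63 (SE 0.0878). Mrpl12 stood at 155, 179 and 129 CPM under DMSO and at 94.2, 111 and 81.6 CPM under Tg, and its call was lost without replicate 2 of Perk-null DMSO (-0.57) or replicate 3 of Perk-null Tg (-0.63). The single rise, of Mrps12 near the decoding centre, was 0.38 (edgeR adjusted p 0.0211) and was lost in 4 of the refits that left out a library (0.28 to 0.35) and without the filter on low counts (0.35). Without replicate 2 of Perk-null DMSO, or without replicate 3 of Perk-null Tg, 12 members were called in Perk-null cells.

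HF lowered more members than any other single treatment in WT cells, and this was not so in Perk-null cells. In WT cells 46 of 77 members fell and 9 rose, with a median log2 change of -0.40 against 0.00 for all tested genes. The background was 68.2% called, 33.4% lower and 34.7% higher. In Perk-null cells 17 fell and 12 rose, with a median of -0.03, where 42.2% of tested genes were called. Scaled by library size alone, these Perk-null counts were 18 and 8. The test of the difference itself called 29 members, 27 of them higher and 2 lower in the Perk-null response, beside 35.0% of tested genes (17.5% in each direction).

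Mrpl34, one of the smallest proteins of the bacterial core, fell most. In WT cells it went from 22.8, 23.3 and 24.9 CPM to 4.58, 4.84 and 3.48 CPM, a log2 change of -2.46 (SE 0.199, edgeR adjusted p 2.55e-12). Among Perk-null libraries it went from 42.1, 40.7 and 40.1 CPM to 16.2, 24.9 and 13.4 CPM, a change of -1.17 (SE 0.181, edgeR adjusted p 3.76e-06). HF values lay under DMSO values in both genotypes, and the responses differed by 1.28 (SE 0.264, edgeR adjusted p 0.000337). The log2 change of Mrpl18 was -1.94 (SE 0.231) for WT cells and -0.90 (SE 0.222) for Perk-null cells. Its HF values were 38.5, 36.3 and 28.6 CPM in WT and 101, 117 and 84.4 CPM in Perk-null libraries, and the responses differed by 1.04 (SE 0.315, edgeR adjusted p 0.0106).

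Mrpl42, particular to mitochondria, stood at 137, 145 and 102 CPM under DMSO and at 41.5, 42.0 and 24.6 CPM under HF in WT cells, a change of -1.83 (SE 0.242, edgeR adjusted p 7.26e-08). Its Perk-null values were 104, 119 and 92.9 CPM under DMSO and 73.5, 71.4 and 57.1 CPM under HF. Both pairs of groups were apart, and the responses differed by 1.19 (SE 0.332, edgeR adjusted p 0.00601). Mrpl43, another protein particular to mitochondria, changed by -0.76 (SE 0.109) in Perk-null cells, from 79.3, 82.5 and 90.1 CPM to 48.3, 59.0 and 41.3 CPM.

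The members that rose under HF in WT cells included Mrpl9, by 0.73 (SE 0.112), Mrpl38, by 0.65 (SE 0.0847), and Mrpl1, a protein of the other ribosomal stalk, by 0.64 (SE 0.172). Mrpl9 went from 84.1, 78.8 and 67.7 CPM to 139, 133 and 111 CPM, with no overlap. In Perk-null cells Mrps18b rose by 0.58 (SE 0.120) to 89.9, 107 and 85.5 CPM, Mrpl1 by 0.52 (SE 0.170) and Mrpl24 by 0.42 (SE 0.112). The call of Mrpl1 in Perk-null cells was lost without replicate 3 of DMSO (0.39) or of HF (0.46). The WT change exceeded the Perk-null change for Mrpl38 (difference -0.42, SE 0.119, edgeR adjusted p 0.00664) and Mrpl9 (-0.40, edgeR adjusted p 0.0475). For Mrpl9 this difference was not called under scaling by library size alone (-0.29), without the filter (-0.33) or in 10 refits without 1 library (-0.42 to -0.27). For Mrpl38 it was lost without the filter (-0.35) and without replicate 3 of Perk-null DMSO (-0.33). The count in Perk-null cells was 18 without replicate 3 of Perk-null HF and 19 without replicate 3 of Perk-null DMSO.

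BtdCPU alone changed fewer members than Tg or HF alone, and also fewer of all tested genes. In WT cells 5 rose and 11 fell, with a median of -0.07. The members called made up 20.8%, near the 22.2% of tested genes called (12.9% higher, 9.31% lower). In Perk-null cells edgeR called 0 members, 6 had an unadjusted p under 0.05, and DESeq2 called 1, beside 3.59% of tested genes (2.55% higher, 1.04% lower). The difference between genotypes was called for 0 members by edgeR and 0 by DESeq2, with 9 at an unadjusted p under 0.05, beside 0.199% of tested genes (0.0373% higher, 0.162% lower). These counts do not show that the genotypes responded alike.

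Mrps18b again rose most in WT cells, from 43.3, 36.4 and 41.7 CPM to 67.1, 49.7 and 66.3 CPM, a log2 change of 0.59 (SE 0.121, edgeR adjusted p 0.000551). Mrps30 rose by 0.45 (SE 0.0989) and Mrps2, of the bacterial core of the small subunit, by 0.42 (SE 0.105). Mrpl18 was at 31.4, 84.9 and 35.1 CPM under BtdCPU, all under the DMSO values, a change of -1.39 (SE 0.226, edgeR adjusted p 3.7e-05). Replicate 2 held the high value. Without it the change of Mrpl18 was -1.99 and 22 members were called. The same library was high for Mrps21, at 13.9, 29.7 and 17.3 CPM, which fell by 0.77 (SE 0.161) on the log2 scale, and for Mrpl11, at 41.7, 63.3 and 42.2 CPM, which fell by 0.66 (SE 0.140). Mrpl33 changed by -0.81 (SE 0.202), a call lost without replicate 3 of WT BtdCPU (-0.65), where 10 members were called in all.

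The compounds were next added to Tg, each group compared with Tg alone in the same genotype. In WT cells BtdCPU added to Tg gave 0 calls by edgeR, 12 members at an unadjusted p under 0.05 and 2 calls by DESeq2, beside 2.32% of tested genes (1.29% higher, 1.02% lower). The median change was -0.16. The WT libraries of these groups deviated together by replicate number, and with the number as a block 11 members were called, all lower. These were 14.3% of the members, beside 12.9% of all tested genes under the same block. Among them were the stalk proteins Mrpl12 (-0.34, edgeR adjusted p 0.0205) and Mrpl11 (-0.29, edgeR adjusted p 0.049), which were at -0.35 (edgeR adjusted p 0.394) and -0.29 (edgeR adjusted p 0.298) without it.

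In Perk-null cells BtdCPU added to Tg raised 20 members and lowered 9, with a median of 0.05, beside 35.6% of tested genes called (17.3% higher, 18.3% lower). Mrps18b went from 53.1, 49.7 and 47.9 CPM under Tg to 83.7, 91.3 and 96.6 CPM, a log2 change of 0.85 (SE 0.120, edgeR adjusted p 1.49e-06). In WT cells it stood at 76.7, 64.6 and 73.0 CPM under Tg and at 74.7, 66.8 and 72.6 CPM with BtdCPU added. The groups were far apart in Perk-null and overlapped in WT cells, and the responses differed by 0.85 (SE 0.169, edgeR adjusted p 0.000422). Mrps30 rose by 0.80 (SE 0.0990) in Perk-null cells, from 104, 110.3 and 92.1 CPM to 172, 186 and 175 CPM, and its responses differed by 0.75 (SE 0.139, edgeR adjusted p 0.000204). Mrpl47 rose by 0.73 (SE 0.219) in Perk-null cells.

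Falls in Perk-null cells under the same addition were led by Mrpl18, -0.78 (SE 0.222), Mrps21, -0.61 (SE 0.159), and Mrps12, -0.55 (SE 0.126). Mrpl18 went from 162, 170.3 and 152 CPM to 94.0, 100.2 and 86.8 CPM, without overlap. The difference between genotypes was called for 19 members, 18 higher and 1 lower in the Perk-null response, beside 20.8% of tested genes (10.7% higher, 10.1% lower). That count was 12 without replicate 3 of Perk-null Tg, 12 without replicate 1 of WT Tg and 10 under scaling by library size alone. Among the named differences Mrpl24 was at 0.81 (SE 0.159, edgeR adjusted p 0.000369). Mrpl47 (0.91, edgeR adjusted p 0.0344) and Mrps21 (-0.71, edgeR adjusted p 0.0254) were each lost in several refits without 1 library, at 0.76 to 0.85 and at -0.67 to -0.54.

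HF added to Tg lowered members in WT cells, where 43 of 77 fell and 2 rose. The median was -0.35 against 0.00 for all tested genes, of which 45.3% were called and 22.5% were lower. In Perk-null cells 25 rose and 14 fell, with a median of 0.04, beside 52.7% called (25.2% higher, 27.5% lower). The difference between genotypes was called for 36 members, 35 higher in the Perk-null response and 1, Mrpl49 (-0.59, SE 0.163), lower. All tested genes had 32.7% called, 15.9% higher and 16.9% lower. Without replicate 3 of WT HF + Tg, 28 members were called in WT cells. The stalk protein Mrpl11 was at -0.29 in WT cells (edgeR adjusted p 0.0978) and passed the threshold with the replicate number as a block (-0.29, edgeR adjusted p 0.0155).

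When HF was added to Tg, the log2 change of Mrpl34 was -1.22 (SE 0.193) for WT cells and -1.24 (SE 0.182) for Perk-null cells. Its WT values were 15.1, 12.8 and 11.1 CPM under Tg and 6.23, 5.01 and 5.47 CPM with HF, and its Perk-null values 40.1, 44.9 and 38.8 CPM and 18.9, 20.4 and 13.3 CPM. All 4 groups were apart from each other except that WT Tg overlapped Perk-null HF + Tg. Mrpl43 changed by -0.91 (SE 0.111) among WT and by -0.74 (SE 0.109) among Perk-null libraries. The rises were in Perk-null cells for Mrpl1, 0.96 (SE 0.172), Mrps18b, 0.92 (SE 0.120), and Mrpl19, 0.90 (SE 0.110). Mrpl1 went there from 32.5, 36.9 and 27.4 CPM to 68.7, 62.0 and 58.0 CPM.

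Mrpl12 had the largest difference between genotypes under this addition. In WT cells it stood at 167, 149 and 100.1 CPM under Tg and at 102, 94.9 and 60.5 CPM with HF, a change of -0.69 (SE 0.203, edgeR adjusted p 0.00566) that was not called without replicate 3 of WT HF + Tg (-0.50) or replicate 1 of WT Tg (-0.54). In Perk-null cells it stood at 94.2, 111 and 81.6 CPM under Tg and at 163, 166 and 122 CPM with HF, a change of 0.65 (SE 0.203, edgeR adjusted p 0.0074). The WT groups overlapped by 1 library and the Perk-null groups did not overlap. The difference was 1.35 (SE 0.287, edgeR adjusted p 0.000448). Mrpl47 differed by 1.32 (SE 0.312) and Mrps26 by 1.27 (SE 0.170, edgeR adjusted p 8.1e-07). Mrps26 went from 54.1, 48.5 and 45.9 to 39.2, 38.6 and 30.2 CPM in WT cells and from 34.7, 48.4 and 36 to 73.2, 69.6 and 66.0 CPM in Perk-null cells. Neither pair of groups overlapped, and the directions were opposite.

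Proteins of the stalk differed in their calls, though no test compared one gene with another. Mrpl10 was called in 0 of the 11 comparisons of 2 groups, as were Mrpl48 and Mrpl50. A call of Mrpl10 appeared for HF in WT cells under scaling by library size alone (-0.21), and without replicate 1 of WT Tg for Tg (-0.34) and for HF added to Tg (0.32) in WT cells. Mrpl10 stood at 76.6, 65.7 and 71.3 CPM in WT DMSO and at 66.9, 68.2 and 66.1 CPM in WT HF libraries. Mrpl11 in the same libraries stood at 83.0, 80.7 and 68.7 CPM and at 46.8, 44.1 and 38.8 CPM, a change of -0.84 (SE 0.141, edgeR adjusted p 4.26e-06). Mrpl12 there changed by -0.68 (SE 0.203, edgeR adjusted p 0.00391). The first pair of groups overlapped and the second did not. With the replicate number as a block Mrpl12 was also called for Tg (-0.24, edgeR adjusted p 0.0393) and BtdCPU (-0.27, edgeR adjusted p 0.0342) in WT cells. It was called too for BtdCPU added to Tg in Perk-null cells (0.42, edgeR adjusted p 0.000757). Among the differences between genotypes it gained calls for Tg (-0.45), HF (0.69) and BtdCPU added to Tg (0.75). Mrpl11 gained a call for the difference in HF (0.48).

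Of the 11 comparisons of 2 groups, Mrps18b was called in 8, Mrps18a in 4 and Mrps18c in 1, and Mrps18b was among the calls wherever Mrps18a or Mrps18c was. With the replicate number as a block Mrps18c was also called for Tg (-0.26, edgeR adjusted p 0.0251) and BtdCPU (-0.43, edgeR adjusted p 0.00104) in WT cells. The block likewise gave it a call for BtdCPU added to Tg in Perk-null cells (-0.43, edgeR adjusted p 0.00047) and for the untreated genotypes (0.44, edgeR adjusted p 0.000255). Mrps18a gained a call that way for BtdCPU in WT cells (0.25, edgeR adjusted p 0.0281). Under Tg in WT cells, without the block, Mrps18b rose by 0.82, while Mrps18a (-0.04, edgeR adjusted p 0.787) and Mrps18c (-0.26, edgeR adjusted p 0.301) did not pass the threshold. Under HF in WT cells Mrps18b rose by 0.55 and Mrps18c changed by -0.58 (edgeR adjusted p 0.0144), a call lost without replicate 2 of WT DMSO (-0.44) or replicate 3 of WT HF (-0.48). Under HF in Perk-null cells Mrps18b rose by 0.58 while Mrps18a changed by -0.30 (edgeR adjusted p 0.0138). Mrps18a stood at 36, 31.2 and 37.9 CPM in WT DMSO and at 64.0, 67.0 and 73.6 CPM in Perk-null DMSO libraries. With BtdCPU added to Tg in Perk-null cells Mrps18a rose by 0.49 (SE 0.0976) and Mrps18b by 0.85. Mrps36, since found to be a component of the 2-oxoglutarate dehydrogenase complex and kept here because of its symbol, changed by -1.14 (SE 0.223) under HF in WT cells, from 6.34, 6.21 and 6.81 CPM to 3.68, 2.55 and 2.56 CPM. Its RefSeq pseudogene copies make its count uncertain, as they do for Mrpl23, Mrpl27 and Mrpl48.

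In most comparisons the members' changes varied with the length of their transcripts. Transcript length (the median over protein-coding transcripts of GENCODE M21) had a median of 1223 bases over the members and 2708 bases over tested genes. Under HF in WT cells the 39 shorter members had a median log2 change of -0.81, with 30 lower and 2 higher, and the 38 longer ones a median of -0.13, with 16 lower and 7 higher. Across the 77 members Spearman's rho between length and log2 change was 0.47 there, against 0.18 across 13311 tested genes with a length. The corresponding values were 0.44 and 0.06 for Tg in WT cells, and 0.43 and 0.04 for HF in Perk-null cells. The sign was opposite for Tg in Perk-null cells, -0.38 and -0.01, and for the genotype difference in the Tg response, -0.49 and -0.04. The relation was weak for BtdCPU added to Tg in WT cells (0.10 over the members, 0.26 over all tested genes), for BtdCPU in Perk-null cells (0.20 and 0.04) and for the genotype difference when HF was added to Tg (0.22 and -0.16). The genes share libraries, so these correlations are descriptions across genes. Whether length contributes to the members' counts was not tested.

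**Figure D5:**
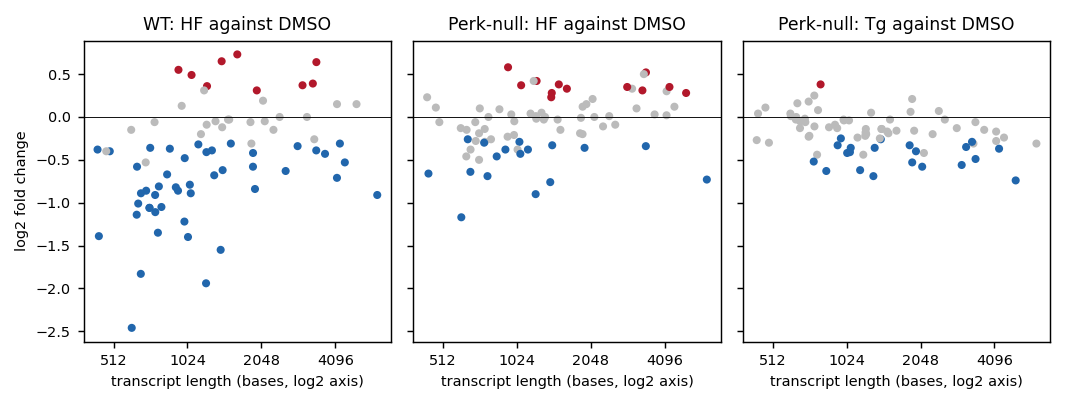
Log2 fold change (vertical axis) of the 77 genes against transcript length in bases (log2 axis), with genes called higher in red, lower in blue and not called in grey. Short members lie low under HF in WT cells (rho 0.47), and the slope is reversed for Tg in Perk-null cells (rho -0.38).

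Other genes of mitochondrial translation were followed from lists. Of 6 tested proteins of the same ribosome with other symbols, 4 fell and 1 rose under HF in WT cells. Their median there was -0.42, beside 33.4% of all tested genes lower. With HF added to Tg in WT cells 4 fell and 0 rose, beside 22.5% of all tested genes lower. In Perk-null cells 0 fell and 2 rose in each of these comparisons. Under Tg in WT cells, where the median was -0.05, 1 of the 6 was called. This was Ptcd3, a small subunit protein, which rose by 0.40 (SE 0.0840). In Perk-null cells its change was -0.53 (SE 0.0840), and the responses differed by -0.93 (SE 0.119). Of 28 genes of ribosome assembly and ribosomal RNA modification, 11 rose and 2 fell under Tg in WT cells, 2 rose and 6 fell in Perk-null cells, and the Perk-null response was lower for 12 and higher for 1. Over all tested genes 47.6%, 27.9% and 38.1% were called in these comparisons, and the share of the 28 called was near this in each genotype. By direction, 24.9% of all tested genes rose and 22.7% fell in WT cells, and 15.2% rose and 12.7% fell in Perk-null cells. The Perk-null response was lower for 18.6% of them and higher for 19.5%. With BtdCPU added to Tg in Perk-null cells 15 of the 28 rose and 0 fell, with a median of 0.26. Of all tested genes 35.6% were called there (17.3% higher, 18.3% lower). Among the 28 Gtpbp10, a GTPase of large subunit assembly, rose most, by 1.03 (SE 0.200). Of 15 translation factors, 2 rose and 8 fell under HF in WT cells. Of all tested genes 68.2% were called there (34.7% higher, 33.4% lower), so the share of the 15 called was near the background. The lowest value among the 15 was that of Mtfmt, which formylates the initiator methionyl-tRNA, at -1.45 (SE 0.155).

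Regulators of mitochondrial transcription and biogenesis (17 tested) differed between genotypes under Tg. In WT cells 7 rose and 2 fell and in Perk-null cells 0 rose and 8 fell, and the difference was called lower for 11 and higher for 0. Over all tested genes 24.9% rose and 22.7% fell in WT cells, and 15.2% rose and 12.7% fell in Perk-null cells. The difference was lower for 18.6% of them and higher for 19.5%. Myc, the transcription factor that drives ribosome production and growth, rose by 1.72 (SE 0.191) in WT cells and changed by -1.29 (SE 0.190) in Perk-null cells. With HF added to Tg in Perk-null cells Myc rose by 3.11 (SE 0.201) and 11 of the 17 rose while 2 fell. Over all tested genes 25.2% rose and 27.5% fell there. Ppargc1a, a coactivator of mitochondrial biogenesis, rose by 3.31 (SE 0.322) under HF in WT cells.

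The products of the mitochondrial ribosome are encoded by 13 mRNAs of mitochondrial DNA. Of these, 12 fell and 0 rose with BtdCPU added to Tg in Perk-null cells, with a median of -0.94, beside 18.3% of all tested genes lower. The members' median there was 0.05, with 20 higher and 9 lower. Under BtdCPU alone in WT cells 9 of the 13 fell, with a median of -0.81, and under HF in WT cells 8 fell. Over all tested genes 9.31% and 33.4% were lower in these comparisons. Cytosolic ribosomal proteins (82 tested) also fell under HF in WT cells, where 71 fell and 4 rose, with a median of -0.65. Over all tested genes 33.4% were lower there. With HF added to Tg in WT cells 45 fell and 2 rose, beside 22.5% of all tested genes lower. The Perk-null response to HF was higher for 26 and lower for 1, beside 17.5% of all tested genes in each direction. For the untreated genotypes 13 were higher and 15 lower, with a median of -0.01, beside 24.6% and 24.9% of all tested genes. There 40 of the 77 members were higher and 6 lower. For Tg in Perk-null cells 1 of the 82 fell and 0 rose, where 21 of the 77 members and 12.7% of all tested genes fell. These lists are set side by side, and no difference between lists was tested.

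Among the members named, Mrpl9, Mrpl18, Mrpl19, Mrpl21, Mrpl24, Mrpl27, Mrpl47, Mrpl48, Mrpl49 and Mrps26 overlap an exon of another tested gene on the opposite strand, and Mrps6 and Mrpl51 overlap one on the same strand, in the GENCODE M21 annotation. In all, 24 members overlap such a gene. The libraries were strand-specific per the labels, but whether counting used the strand is not given in the sources used here, so reads of a neighbour may be among their counts.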

How the data were processed

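The series holds RNA-seq data of mouse embryonic fibroblasts in 36 samples, which were grouped by the genotype and treatment in the labels. Columns of the count table abbreviate the genotypes as Plus and Minus and the treatments by initials; Plus was read as WT and Minus as PERK -/-. Nothing says that replicates were separate cultures, so p-values measure the spread between these samples, which may be technical. Per the labels' protocols, libraries were strand-specific, with ribosomal RNA depletion and mRNA selection both named. The authors deposited estimated counts per gene, with no scaling of one library to another. GRCm39 and DESeq appear in the submitters' processing notes, with no role given. The aligner, the counter, the annotation and the use of strand are not given in the sources used here. The deposited value 0.025 stands where a count of 0 would be, in 50.6% of values.

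Entries named by a date number (27 of 36930) were left out, repeated symbols were summed and counts were rounded. Totals of 32454257 to 37178107 counts per library set the precision. The lowest chi-square between libraries of a group was 9.06 per degree of freedom, so none repeated another. Group means were fitted with edgeR 4.0.16 in R 4.3.3 (TMM, filterByExpr, robust quasi-likelihood) to all 36 libraries at once, leaving 24 residual degrees of freedom at a common dispersion of 0.0199. Tests covered 16065 genes in 16 contrasts, 5 of them differences between genotypes in a response. Benjamini-Hochberg adjustment ran over all tested genes of a contrast, with a threshold of 0.05, and the procedure was tested on simulated data. Alternatives were DESeq2 1.42.0, RLE size factors, library size as the only scaling, no filter, a replicate block within genotype, and leaving out each library in turn.

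Members and lists were chosen with earlier results of these data known. Named members were Mrpl10, Mrpl11, Mrpl12, Mrps18a, Mrps18b, Mrps18c, Mrps30 and Mrps36, and for each contrast the 3 largest rises and 3 largest falls among members called whose average log2 CPM reached 2. Mrpl23, Mrpl48, Mrpl50 and genes of other lists were named after their values were seen. Same-numbered libraries correlated above 0.1 in each pair (deviations from group means) for BtdCPU added to Tg in WT cells, at 0.16, 0.31 and 0.34, and for HF added to Tg in WT cells, at 0.16, 0.20 and 0.31, so the blocked value is given there where it changes a call. For Mrpl12, Mrps18a and Mrps18c it is also given in other comparisons of 2 groups, and for Mrpl11 and Mrpl12 in differences between genotypes.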

Additional observations from a re-analysis of the deposited data

Results flagged for a closer look

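Several results differed between genotypes by a test of the difference itself, an interaction term in edgeR at an adjusted p below 0.05, where a positive value is a higher response in Perk-null cells. For Tg against DMSO 36 members differed. The differences of the named members were 1.28 for Mrpl18, 1.26 for Mrps21, 0.94 for Mrpl42 and 0.62 for Mrpl11 on the positive side. On the negative side they were -1.15 for Mrps18b, -0.95 for Mrps22, -0.91 for Mrpl32, -0.60 for Mrps30 and -0.49 for Mrps18a. For HF against DMSO 29 members differed, with 1.28 for Mrpl34, 1.19 for Mrpl42, 1.04 for Mrpl18, -0.42 for Mrpl38 and -0.40 for Mrpl9. The difference of Mrpl42 for Tg lost its call in 5 refits without 1 library (0.72 to 0.88).

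For BtdCPU added to Tg 19 members differed between genotypes, with 0.91 for Mrpl47, 0.85 for Mrps18b, 0.81 for Mrpl24, 0.75 for Mrps30 and -0.71 for Mrps21. For HF added to Tg 36 members differed, with 1.35 for Mrpl12, 1.32 for Mrpl47, 1.27 for Mrps26, 0.99 for Mrps18b, 0.66 for Mrps30 and -0.59 for Mrpl49. Groups of 3 libraries were too small for a test of single outlying libraries.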

How the results depend on the processing

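No called value of a named member changed sign in any alternative run. Medians near 0 did so without 1 library: for Tg in WT cells -0.05 became 0.03 (without replicate 3 of WT Tg), for BtdCPU in Perk-null cells -0.05 became 0.02 (replicate 2 of Perk-null DMSO), and for the difference in BtdCPU 0.07 became -0.01 (replicate 3 of WT BtdCPU). With a replicate block within genotype the counts of members called became 28 for BtdCPU and 11 for BtdCPU added to Tg in WT cells, 36 for Tg, 2 for BtdCPU and 44 for BtdCPU added to Tg in Perk-null cells, and 2 (BtdCPU), 47 (HF) and 30 (BtdCPU added to Tg) for the differences between genotypes. Over all tested genes the block called, in the same order, 34.5%, 12.9%, 37.8%, 9.82%, 45.5%, 3.65%, 45.4% and 31.1%, beside 36.4%, 14.3%, 46.8%, 2.60%, 57.1%, 2.60%, 61% and 39.0% of the members. Outside BtdCPU or HF added to Tg in WT cells not every pair of same-numbered libraries correlated above 0.1, although replicate 3 had the lowest share of counts in members in 12 of 12 groups. DESeq2 called 2 for BtdCPU added to Tg in WT and 1 for BtdCPU in Perk-null cells. Without the filter on low counts these were 1 and 1, and the difference for BtdCPU was 2. Scaling by library size alone left 10 differences for BtdCPU added to Tg, and shifted the median of all tested genes to -0.11 for HF in WT cells, to 0.10 for the difference in HF and to -0.13 for that in BtdCPU added to Tg. Leaving out 1 library at a time, counts ran from 10 to 22 (BtdCPU, WT), 0 to 1 (BtdCPU added to Tg, WT), 28 to 50 (HF added to Tg, WT), 12 to 26 (Tg, Perk-null), 18 to 25 (HF, Perk-null), 0 to 5 (difference for BtdCPU, the 5 without replicate 2 of WT BtdCPU) and 12 to 23 (difference for BtdCPU added to Tg). Medians in Perk-null cells ran from -0.28 to -0.14 for Tg, -0.12 to 0.00 for HF and 0.05 to 0.15 for BtdCPU added to Tg. The cause of these changes was not tested. With 3 libraries a group, small changes of members were not detectable.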
